A study of Mus musculus with 8 samples.

Results

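The EGR (early growth response) genes Egr1, Egr2, Egr3 and Egr4 and the NAB (NGFI-A binding) genes Nab1 and Nab2 were followed in brain RNA from C57BL/6 mice. The 6 genes were taken by symbol from the deposited table of read counts, which lists 17613 genes, and all 6 were among the 15902 genes with enough counts to be tested. The set was chosen by the Egr3 counts, already known to be higher in the libraries labelled knockout, so the difference between the groups is given for these genes as a description and not as a test. The series held 4 libraries labelled WT, from wild type mice, and 4 labelled KO, from mice with a knockout of Uhrf2, a RING-finger reader of methylated and hydroxymethylated DNA. Polyadenylated RNA was sequenced, no treatment is named, and the labels give no age, sex or kind of knockout allele and do not say whether each library is a separate animal. The p-values therefore measure the spread between these libraries, which may be technical.

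EGR proteins are transcription factors whose zinc fingers read a GC-rich DNA site. In neurons their genes are switched on within minutes of synaptic activity, through ERK signalling to SRF with its ternary complex partners and through CREB. Nab1 and Nab2 encode corepressors that dock on an inhibitory domain shared by Egr1, Egr2 and Egr3 and not present in Egr4, and Nab2 is itself induced by EGR proteins, which closes a feedback loop. Egr1 is the abundant forebrain member, Egr2 is best known for hindbrain patterning and Schwann cell myelination, and Egr3 acts downstream of activity in memory and stress responses.

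Library totals ran from 11891350 counts (WT replicate 1) to 19773921 (WT replicate 3), so a count of 3 stood for between 0.152 and 0.252 CPM, the count scaled to the size of its library. The targeted gene went against the label: Uhrf2 lay between 47.7 and 58.9 CPM in the 4 WT libraries and between 86.4 and 91.8 CPM in the 4 KO libraries. Counts per gene do not separate the deleted part from the rest, so the groups are called by their labels and every direction below rests on them. Markers of brain cells were present in all 8 libraries, with 10 of 10 tested and a summed level of 11160 to 11370 CPM in WT and 11130 to 11550 CPM in KO. Of the T and B lymphocyte markers all except Cd4 had too few counts to be tested.

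Promoter sequence is shown, with matches to the sites of the factors just named, for the paralogues beside which Egr3 is set and for Nab1, a NAB gene whose promoter holds the EGR site. RefSeq start sites on GRCm38.p6 were matched for 4 of the 6 genes (Egr2, Egr4, Nab1 and Nab2), in 8 windows of 300 bases. Of the 5 Egr2 windows 3 tie for the most CArG and CRE matches, and the one shown is the first of these, 2394 bases from the GENCODE start of the gene. Each line gives the 250 bases upstream of a start site, 5′ to 3′ on the gene's strand, with capitals on the CArG box (the SRF site), the CRE core TGACG (the CREB site) and the EGR site GCGNGGGCG, searched on both strands. The stretches are chr10:67537619-67537868 on the plus strand for Egr2, chr6:85513590-85513839 on the minus strand for Egr4 and chr1:52500449-52500698 on the minus strand for Nab1.
Egr2: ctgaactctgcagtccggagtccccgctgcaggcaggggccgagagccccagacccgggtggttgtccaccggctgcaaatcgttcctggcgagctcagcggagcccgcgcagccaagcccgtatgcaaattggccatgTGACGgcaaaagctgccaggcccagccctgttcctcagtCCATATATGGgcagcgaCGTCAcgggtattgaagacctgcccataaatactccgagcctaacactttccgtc
Egr4: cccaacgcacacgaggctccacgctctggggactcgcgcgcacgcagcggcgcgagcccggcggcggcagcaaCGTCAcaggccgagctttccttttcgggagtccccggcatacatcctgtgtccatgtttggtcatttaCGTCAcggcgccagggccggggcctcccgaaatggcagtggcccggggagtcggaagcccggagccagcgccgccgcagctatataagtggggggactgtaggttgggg
Nab1: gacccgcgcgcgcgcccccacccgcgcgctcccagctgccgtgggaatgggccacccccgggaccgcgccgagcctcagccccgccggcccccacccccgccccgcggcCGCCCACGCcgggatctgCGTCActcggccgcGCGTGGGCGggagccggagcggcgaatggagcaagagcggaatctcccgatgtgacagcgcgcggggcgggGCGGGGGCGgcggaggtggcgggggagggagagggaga

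The Egr2 stretch held a CArG box, CCATATATGG, at -72 to -63 from the start, between 2 CRE cores (-111 to -107 and -55 to -51). The Egr2 window nearest the GENCODE start of the gene, at 67535499, held none of the patterns. Of 32817 RefSeq start-site windows of 300 bases 1.63% held a CArG box and 20.8% the CRE core. The Egr4 stretch held 2 CRE cores, at -177 to -173 and -109 to -105, and no CArG box. Nab1 held 3 matches to the EGR site, which 5.56% of all windows hold, and 1 CRE core, in a window of 81.7% GC against a median of 52.7% over all windows. The Egr2 and Nab1 stretches were picked for their matches, so nothing is read from these shares. The Nab2 window lies at a start site 1865 bases from the GENCODE start of the gene, and none of these letter patterns was found in it. The sequence at that GENCODE start was not searched. The full CRE, TGACGTCA, which contains the core, was in 1.79% of all windows and in none of the windows of these genes. These are matches to letters and not measured binding.

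Among the activity-induced factors, Egr3 was the EGR gene that stood apart between the groups. It encodes a factor that needs synaptic activity for its expression in cortex and hippocampus. Egr3 stood at 22.8, 25.1, 25.5 and 30.6 CPM in WT replicates 1 to 4 and at 68.75, 59.1, 60.7 and 61.8 CPM in KO replicates 1 to 4. Every KO library lay above every WT library. The means were 25.99 ± 3.28 CPM in WT and 62.6 ± 4.26 CPM in KO (SD, n = 4 each), a log2 fold change of 1.26 (SE 0.07). With the labels exchanged the same values would be a fall, to 0.415 of the level. Leaving out any 1 library moved the log2 fold change between 1.22 and 1.35.

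Egr1, the most abundant EGR transcript here, did not separate the groups. It stood at 153, 211, 199 and 222 CPM in WT replicates 1 to 4 and at 154, 172, 217 and 177.5 CPM in KO replicates 1 to 4. The low libraries were those numbered 1 in both groups, and the ranges overlapped over almost their whole length. The means were 196 ± 30.4 and 180 ± 26.6 CPM (SD, n = 4 each), a log2 fold change of -0.12 (SE 0.15).

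Egr2 was the scarcest of the 6 genes and the most variable. Its counts were 32, 119, 151 and 127 in WT replicates 1 to 4 and 41, 98, 164 and 75 in KO replicates 1 to 4. These correspond to 2.69, 7.29, 7.54 and 8.22 CPM in WT and 3.06, 6.24, 8.67 and 5.01 CPM in KO. Again replicate 1 was the lowest library of either group and the groups overlapped. The log2 fold change was -0.17 with an SE of 0.39, with extremes of -0.45 when KO replicate 3 was dropped and 0.02 when KO replicate 1 was dropped.

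Egr4, the member that lacks the NAB docking domain, overlapped between the groups. It stood at 12.45, 23.5, 20.3 and 23.6 CPM in WT replicates 1 to 4 and at 22.5, 19.7, 20.9 and 20.6 CPM in KO replicates 1 to 4. WT replicate 1 lay below all other libraries, and the other 3 WT libraries overlapped the KO libraries. The log2 fold change was 0.05 (SE 0.17), and its sign turned, to -0.10, without WT replicate 1, to -0.13 without both libraries numbered 1, and to -0.02 with GC and length trends removed.

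**Figure D1:**
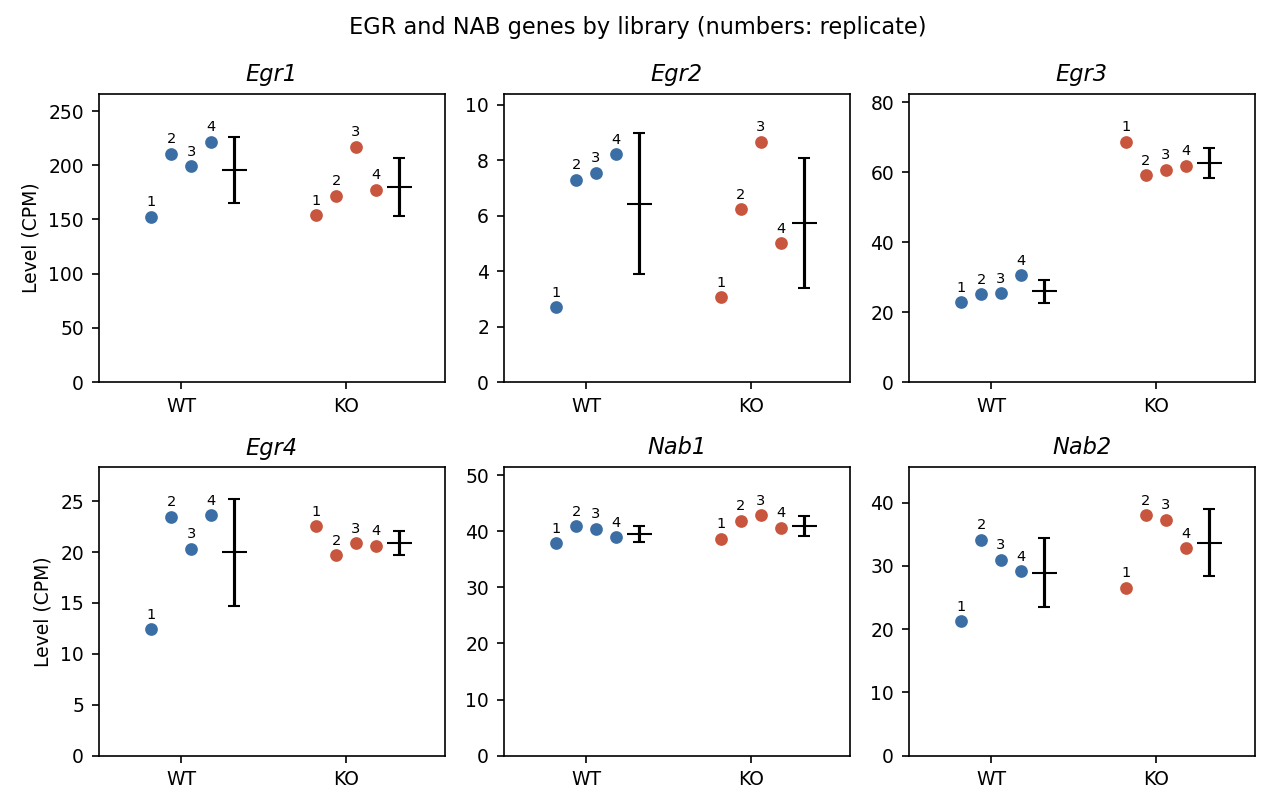
Level in CPM (y axis, from 0) of each EGR and NAB gene in the 4 WT and 4 KO libraries. Points are libraries with their replicate number, and the bars beside them give the mean and SD. The KO libraries lie above the WT libraries for Egr3 alone among the 6 panels, and replicate 1 is the lowest WT library in all 6.

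The corepressor genes overlapped between the groups. Nab1, the more constant corepressor, stood at 37.8, 40.9, 40.4 and 38.9 CPM in WT replicates 1 to 4 and at 38.7, 41.85, 42.9 and 40.6 CPM in KO replicates 1 to 4. All 8 values lay within a narrow band, and the log2 fold change was 0.05 (SE 0.05). Nab2, the corepressor that EGR proteins induce, stood at 21.3, 34.1, 31.0 and 29.2 CPM in WT replicates 1 to 4 and at 26.55, 38.0, 37.3 and 32.8 CPM in KO replicates 1 to 4. Replicate 1 was the lowest library of either group, and the ranges overlapped. The log2 fold change was 0.21 (SE 0.16), between 0.11 and 0.31 without any 1 library. With the replicate number as a block it was 0.22 (SE 0.06), and each KO library lay above the WT library of its number. In the contrast without a block 1 of the 6 genes passed the threshold for a changed gene, and that 1, Egr3, was higher. The threshold was an adjusted p under 0.05 in edgeR's quasi-likelihood fit. Of all tested genes 1.43% passed, 1.14% higher and 0.289% lower. WT and KO libraries lay fully apart for 1 of the 6, against 7.67% of all tested genes (4.28% with KO higher and 3.4% with KO lower). The genes were chosen with this contrast known, so nothing is read from these shares.

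**Figure D2:**
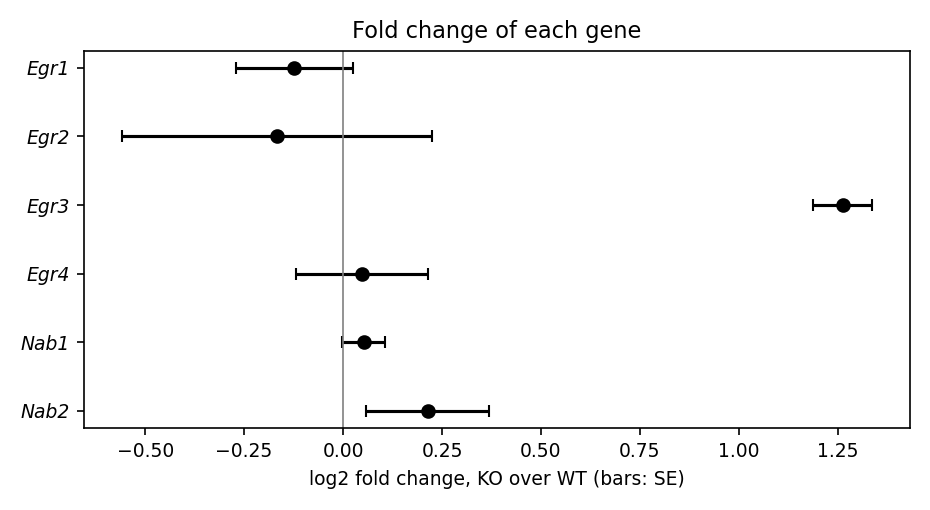
Fitted log2 fold change of KO over WT (x axis) for each of the 6 genes, with bars for the SE. Egr3 lies at 1.26 and the other 5 genes lie between -0.17 and 0.21.

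Positions are those of GENCODE M21 on GRCm38. Egr3 (ENSMUSG00000033730) is on chromosome 14 from 70077203 to 70082614, Egr1 (ENSMUSG00000038418) on chromosome 18 from 34859823 to 34864984, and Egr4 (ENSMUSG00000071341) on chromosome 6 from 85511121 to 85513589. Egr2 (ENSMUSG00000037868) and Nab2 (ENSMUSG00000025402) are both on chromosome 10, from 67535475 to 67542188 and from 127660918 to 127668568, and Nab1 (ENSMUSG00000002881) is on chromosome 1 from 52457294 to 52500679. Of the 6, Nab2 was the one that shares ground with other annotated genes, all on the opposite strand. Its exons share 40 bases with Stat6, 151 with Nemp1 and 1050 with the antisense gene Gm16229. The library kit marks strand, but how the counting treated strand is not given in the sources used here. The deposited interval of Nab2, from 127642985 to 127701049, also runs over the whole of Stat6 and Nemp1. Nab2 reads and those of these neighbours may not have been told apart. Stat6, a cytokine signalling factor, stood at 15.3 ± 1.30 CPM in WT and 16.8 ± 0.76 CPM in KO (SD, n = 4 each).

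Levels of different genes were compared per kilobase of the longest coding transcript. In WT the order was Egr1 at 43.7 ± 6.78 CPM per kb, Nab2 at 11.2 ± 2.12, Nab1 at 10.2 ± 0.36, Egr4 at 9.30 ± 2.44, Egr3 at 6.60 ± 0.83 and Egr2 at 2.17 ± 0.85 CPM per kb (SD, n = 4). Egr1 was above and Egr2 below all others in every WT library, while each neighbouring pair from Nab2 down to Egr3 overlapped. In KO, Egr3 was second, at 15.9 ± 1.08 CPM per kb, and its lowest library lay above the highest Nab2 library. Nab2 (13.0 ± 2.05), Nab1 (10.6 ± 0.46) and Egr4 (9.74 ± 0.55 CPM per kb) followed, each pair of neighbours overlapping, and Egr1 (40.2 ± 5.94) and Egr2 (1.94 ± 0.79) kept the ends of the order.

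The place of Egr3 in that order depended on the length taken. The deposited interval of Egr3 ends at 70080157, short of the annotated end, and holds 1707 exon bases against 3940 in the longest coding transcript. Divided by the shorter length, Egr3 stood at 15.2 ± 1.92 CPM per kb in WT and 36.7 ± 2.49 CPM per kb in KO (SD, n = 4). It was then second in both groups, and in KO its range overlapped that of Egr1. The difference between the groups within Egr3 does not depend on this choice.

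Set beside each paralogue inside the same library, Egr3 was higher in KO on average with each as the reference. Per kb, the ratio of Egr3 to Egr1 was 0.170, 0.136, 0.146 and 0.157 in WT replicates 1 to 4 and 0.509, 0.391, 0.318 and 0.3965 in KO replicates 1 to 4. No KO library fell into the WT range. The ratio of Egr3 to Egr4 was 0.998, 0.584, 0.683 and 0.705 in WT and 1.66, 1.64, 1.58 and 1.63 in KO. The log2 ratio had an SD of 0.03 over the KO libraries and 0.33 over the WT libraries, or 0.15 in WT without replicate 1. The ratio of Egr3 to Egr2 was 6.37, 2.59, 2.54 and 2.80 in WT and 16.9, 7.13, 5.27 and 9.29 in KO. Here the groups overlapped, because WT replicate 1, with few Egr2 counts, lay above KO replicate 3. The mean log2 ratio was higher in KO by 1.39 for Egr1, by 1.16 for Egr4 and by 1.41 for Egr2, with ranges of 1.28 to 1.501, 1.06 to 1.31 and 1.10 to 1.73 when any 1 library was left out.

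**Figure D3:**
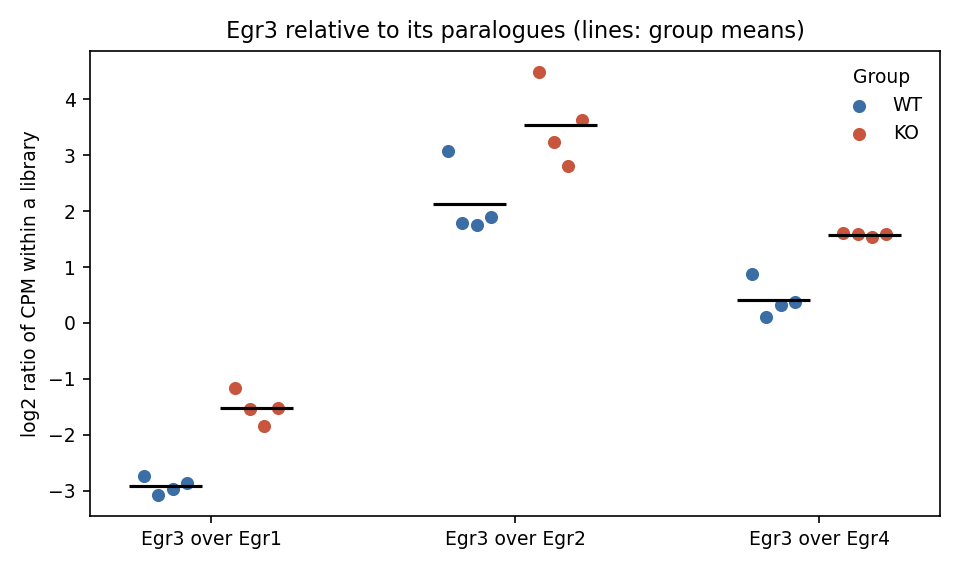
The log2 ratio of Egr3 CPM to the CPM of Egr1, Egr2 or Egr4 in the same library (y axis), by group. Points are libraries and lines are group means. For Egr1 and Egr4 the 4 KO points lie above the 4 WT points, and for Egr2 the groups overlap.

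Apart from the contrast, the EGR and NAB genes differed in how much they varied inside a group. The pooled SD of log2 CPM around the group mean was 0.68 for Egr2, 0.31 for Egr4, 0.27 for Nab2, 0.22 for Egr1, 0.14 for Egr3 and 0.06 for Nab1. Genes of a like level, the same decile of all tested genes by mean level, gave the scale. For Egr1 only 4 of 1591 such genes had a larger SD, for Egr2 5 of 1590, for Egr4 12 of 1590 and for Nab2 19 of 1590. Egr3 was closer to the bulk, with 107 of 1590 above it, and Nab1 lay in the quiet part, with 1289 of 1590 above it. For Egr4 this rested on WT replicate 1, without which its SD was 0.10 and 781 of 1590 genes of a like level lay above it. For Egr3 it rested in part on WT replicate 4, without which its SD was 0.09 with 593 of 1590 above it. Without both libraries numbered 1 the SD of Egr2 was 0.28 (100 of 1590 above), that of Egr1 0.14 (40 of 1591 above) and that of Nab2 0.11 (292 of 1590 above).

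Several members varied in parallel inside the groups, although no pair passed after adjustment. WT replicate 1 was below its group mean for all 6 genes, by 1.10 on the log2 scale for Egr2 and by 0.63 for Egr4. KO replicate 1 was below its group mean for Egr2, Nab2, Egr1 and Nab1 but above it for Egr3 and Egr4. Over the 8 deviations from the group means, Egr1 and Egr2 had a Pearson r of 0.95 and a Spearman rho of 0.95, with exact permutation p = 0.0104 and 0.0156 (two-sided, over all arrangements within groups). Nab1 and Nab2 had an r of 0.93 (exact permutation p = 0.00347) and a rho of 0.83 (exact permutation p = 0.0243). Egr2 and Nab2 had an r of 0.92 (exact permutation p = 0.0208) and a rho of 0.62 (exact permutation p = 0.163). After Benjamini-Hochberg adjustment over the 15 pairs none was below 0.05, the smallest adjusted values being 0.0521 for r and 0.182 for rho.

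The 2 libraries farthest from the median of 1 gene of a pair were then left out, and they differed between pairs. Without WT replicate 1 and KO replicate 3, the r of Egr1 and Egr2 was 0.89, with KO replicate 1 kept. Without both libraries numbered 1, the r of Nab1 and Nab2 was 0.84. That of Egr2 and Nab2 dropped to 0.39 without the same libraries and so rested on them. Egr3 and Egr1 had an r of 0.35 (exact permutation p = 0.432, adjusted 0.571) and a rho of 0.29 (exact permutation p = 0.521, adjusted 0.71). The r of 0.35 joins a positive relation over the 4 WT libraries with a negative one over the 4 KO libraries, too few in each for a value of its own. It was 0.15 without WT replicate 1 and KO replicate 3. Egr3 and Egr4 had an r of 0.73 (exact permutation p = 0.191, adjusted 0.344) and a rho of 0.76 (exact permutation p = 0.0486, adjusted 0.243). Their r was 0.89 without WT replicate 4 and KO replicate 1.

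**Figure D4:**
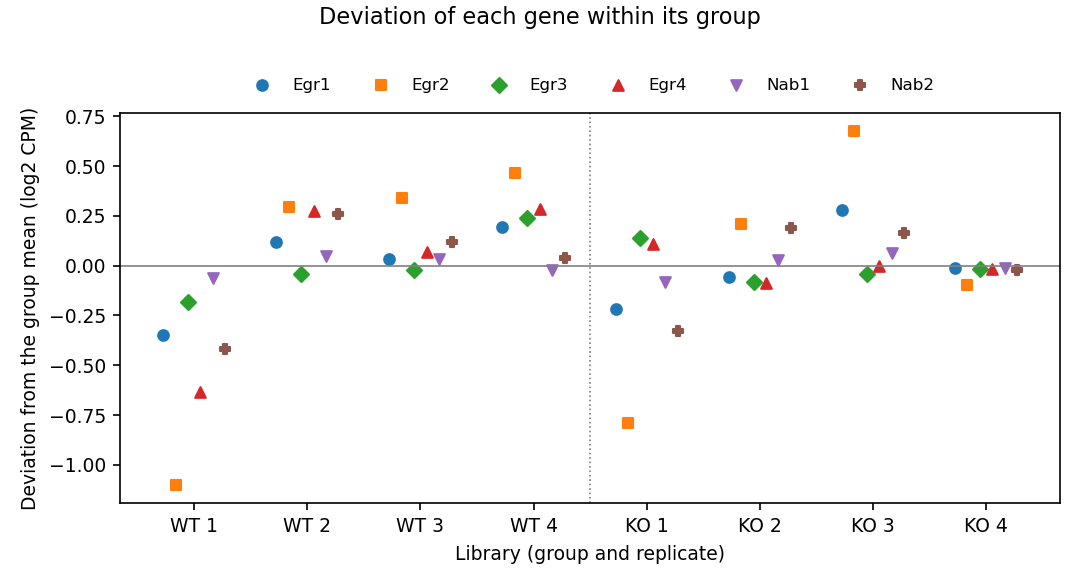
Deviation of log2 CPM from the mean of its own group (y axis) for each gene in each library (x axis), one symbol per gene. In WT 1 all 6 symbols lie below 0, and in KO 1 Egr3 and Egr4 lie above 0 while the other 4 lie below it.

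The libraries numbered 1 also had the lowest sum of other rapid activity genes in their groups, in KO not far below replicate 4. The 28 genes of a list of rapid activity-induced genes, such as Fos, Arc and Nr4a1, summed to 709 CPM in WT replicate 1 against 1030 to 1142 CPM in the other WT libraries. In KO they summed to 872 CPM in replicate 1 and 916 to 1173 CPM in the others. Of the 28, 20 were at their lowest WT value in WT replicate 1 and 13 at their lowest KO value in KO replicate 1. The same counts over all tested genes are not given here, so nothing particular to this list is read from them. The libraries numbered 1 also had the fewest counts in each group, and the part of depth or handling in their low values was not tested.

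The genes whose deviations were most like those of a member, among 11649 named candidates with a mean of at least 5 CPM, are given as a description. Nearest to Egr1 over the 8 libraries were Lin7b (r = 0.99), D17Wsu104e, Wdr91, Lsm12 and Siah2 (the last at r = 0.97). Nearest to Nab2 were Insig1, a brake on sterol synthesis (r = 0.997), Sik1, an activity-induced kinase (r = 0.99), Zscan21, Timeless and Polr2f (the last at r = 0.98). Nearest to Egr3 were Klhl11 (r = 0.97), Plod1, Slc4a1ap, Optn and Vgf, a neuropeptide precursor (the last at r = 0.95). Of these 15 genes Vgf alone passed the threshold between the groups, against 1.43% of all tested genes. The values of r are the highest among 11649 candidates over 8 libraries. Values this high can arise by chance there, so no partner of a member is read from them.

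Genes that EGR proteins are reported to regulate were read from a list of 23, all tested. Of these 2 rose in KO, 0 fell and 21 did not pass. For this and the lists below, the share over all tested genes was 1.14% rising and 0.289% falling. Below, counts at an unadjusted p under 0.05 come without their share over all tested genes, so nothing is read from them. The median log2 fold change was 0.09 against -0.0049 for all tested genes, and 19 of the 23 had a positive value against 48% of all. The lists were written with earlier results of these libraries known, so the direction of this list is not independent evidence. Gadd45b, which responds to stress and activity and promotes removal of DNA methylation, rose from 8.98 ± 1.51 to 17.0 ± 2.89 CPM (SD, n = 4 each), a log2 fold change of 0.91 (SE 0.13, edgeR adjusted p = 0.00161). Cdkn1a, the cell cycle inhibitor p21, rose from 22.9 ± 2.57 to 33.6 ± 4.397 CPM, a log2 fold change of 0.54 (SE 0.09, adjusted p = 0.00693 by edgeR). Each passed in all 8 fits that left out 1 library.

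Other reported targets had a higher mean in KO without passing. Syn2, a synaptic vesicle protein, stood at 495 ± 10.8 and 546 ± 28.1 CPM (WT and KO, SD, n = 4, edgeR adjusted p = 0.104), and Cdk5r1, the activator of the kinase Cdk5, at 246 ± 5.02 and 273.6 ± 20.3 CPM (edgeR adjusted p = 0.145). Ptgs2, the inducible cyclooxygenase, stood at 11.1 ± 1.30 and 18.9 ± 5.87 CPM (WT and KO, SD, n = 4, adjusted p = 0.17 by edgeR), and Bdnf, a neurotrophin, at 27.3 ± 4.17 and 43.0 ± 10.85 CPM (adjusted p = 0.233 by edgeR). These were named after their values were seen. Without KO replicate 1 the number that passed was 4 (Bdnf, Cdkn1a, Gadd45b and Ptgs2), and without KO replicate 2 it was 4 (Cdk5r1, Cdkn1a, Gadd45b and Syn2). With limma-voom it was 4 as well (Bdnf, Cdkn1a, Gadd45b and Ptgs2). Over all genes these fits called 185, 324 and 203, against 228 in the main fit.

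Targets that Egr2 controls in Schwann cells and hindbrain held no gene past the threshold. Of 10 listed, 6 were tested, 0 passed by edgeR, 0 had an unadjusted p under 0.05, and 0 passed with DESeq2 or limma-voom. Their median log2 fold change was -0.03. Lowest in p were Epha4, an axon guidance receptor, at 141 ± 14.3 and 155.5 ± 17.98 CPM, and Pmp22, a myelin protein, at 41.1 ± 2.85 and 38.0 ± 4.43 CPM (WT and KO, SD, n = 4).

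Upstream of the EGR genes, 1 gene passed. Of 14 genes for SRF, its ternary complex and MRTF partners and the CREB factors, 0 passed by edgeR, 2 had an unadjusted p under 0.05, and the median log2 fold change was -0.03. Mkl1, an actin-regulated SRF coactivator, stood at 53.3 ± 3.73 and 61.7 ± 4.33 CPM (WT and KO, SD, n = 4, adjusted p = 0.0976 by edgeR), and Mkl2, its relative, at 199.6 ± 11.6 and 219.7 ± 15.45 CPM (adjusted p = 0.264 by edgeR). DESeq2 and limma-voom called 0 of the 14. Of 22 tested genes of ERK and calcineurin signalling, 1 rose, against 1.14% of all tested genes. In the list 0 fell and 21 did not pass, at a median of -0.02. The gene that rose was Rps6ka2, an ERK-activated kinase, from 90.2 ± 2.70 to 105.7 ± 4.73 CPM (adjusted p = 0.0117 by edgeR). It missed the threshold without WT replicate 3 or without KO replicate 4 (adjusted p up to 0.0571 by edgeR). Without KO replicate 2 Map2k1 and Mapk7 passed as well, and of the 3 then called 2 rose and 1 fell.

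Downstream of NAB proteins stands the NuRD complex, a nucleosome remodeller and deacetylase that Nab2 recruits through Chd4. Of its 15 genes 0 passed by edgeR, 2 had an unadjusted p under 0.05, and the median log2 fold change was 0.01. Chd4 stood at 228.6 ± 6.15 and 226.4 ± 9.51 CPM (WT and KO, SD, n = 4), and was named for its contact with Nab2. The members with the lowest p were Rbbp7, a histone-binding subunit, at 115.5 ± 3.09 and 127.9 ± 2.73 CPM (adjusted p = 0.0903 by edgeR), and Gatad2b, at 19.95 ± 1.31 and 22.7 ± 2.09 CPM (adjusted p = 0.3 by edgeR). DESeq2 called Rbbp7 and limma-voom called 0.

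Other zinc finger factors that read GC-rich sites, the SP and KLF families, held 0 of 13 past the threshold by edgeR, with 3 at an unadjusted p under 0.05 and a median log2 fold change of -0.04. Klf9, a glucocorticoid- and activity-responsive gene, stood at 136.5 ± 8.75 and 164.5 ± 17.0 CPM (WT and KO, SD, n = 4, adjusted p = 0.0635 by edgeR), and Klf10 at 23.6 ± 6.39 and 40.8 ± 6.08 CPM (adjusted p = 0.177 by edgeR). DESeq2 called Klf9 and Klf10, limma-voom called Klf10, and edgeR without WT replicate 1 called both.

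Activity-induced genes were read in lists by how fast they are known to respond. Of 28 rapid genes, 0 passed by edgeR, 8 had an unadjusted p under 0.05, 12 had a positive value, and the median log2 fold change was -0.07. The share of all tested genes at that unadjusted cut is not given here. Fos stood at 29.3 ± 6.49 and 24.6 ± 6.09 CPM and Arc, a synaptic capsid protein, at 136.9 ± 45.0 and 137.5 ± 46.8 CPM (WT and KO, SD, n = 4), and Fosb, an AP-1 factor, at 12.8 ± 3.09 and 30.7 ± 9.39 CPM (edgeR adjusted p = 0.11), all given after their values were seen. In 6 of the 28, Fosb among them, every KO library lay above every WT library, against 4.28% of all tested genes. Ier5 and Jun had the lowest p, at 58.4 ± 8.64 and 77.8 ± 5.30 CPM (adjusted p = 0.0549 by edgeR) and at 47.1 ± 2.69 and 54.2 ± 2.80 CPM (adjusted p = 0.0853 by edgeR). DESeq2 and limma-voom each called 4, and the same ones (Fosb, Ier5, Klf10 and Ptgs2), among 311 and 203 genes called in all. Without WT replicate 1 edgeR called 2 (Ier5 and Klf10), without WT replicate 4 it called 1 (Ier5), and without KO replicate 1 it called 2 (Fosb and Ptgs2). Over all genes it then called 175, 199 and 185, against 228 with all libraries. Ptgs2 and Arc are also in the list of EGR targets, and Klf10 is also in that of zinc finger factors.

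In a list of 20 genes with slower or longer-lived responses, 9 rose, 0 fell and 11 did not pass. Of all tested genes 1.14% rose and 0.289% fell. The list had a median log2 fold change of 0.30, with 19 of 20 positive. It shares genes with other lists: Gadd45b and Bdnf are also EGR targets, so the rise of Gadd45b is counted in both. This list was written with earlier results of these libraries known, so its direction is not independent evidence. Inhba, which encodes a subunit of activin A, went up from 2.56 ± 0.18 to 7.22 ± 2.57 CPM (SD, n = 4 each, log2 fold change 1.48, SE 0.22, adjusted p = 0.00245 by edgeR). Rgs2, a brake on G protein signalling, rose from 59.75 ± 2.55 to 79.1 ± 9.37 CPM (adjusted p = 0.00536 by edgeR), and Nrn1, the surface protein neuritin, from 149.7 ± 6.17 to 193.9 ± 22.8 CPM (adjusted p = 0.0162 by edgeR). Vgf, Gadd45b, Npy, Sv2c, Nptx2 and Rheb were the other 6, at log2 fold changes from 0.18 for Rheb to 1.47 for Nptx2. The count was 5 when WT replicate 1, 2 or 3 or KO replicate 3 was left out, and 10 when KO replicate 2 was. Over the 8 leave-one-out fits Rheb failed the threshold in 7, Sv2c and Nptx2 in 6 each, Nrn1 in 4 and Npy in 1, while Inhba, Rgs2, Vgf and Gadd45b failed it in 0. Whether the slow and rapid lists differ from each other was not tested.

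**Figure D5:**
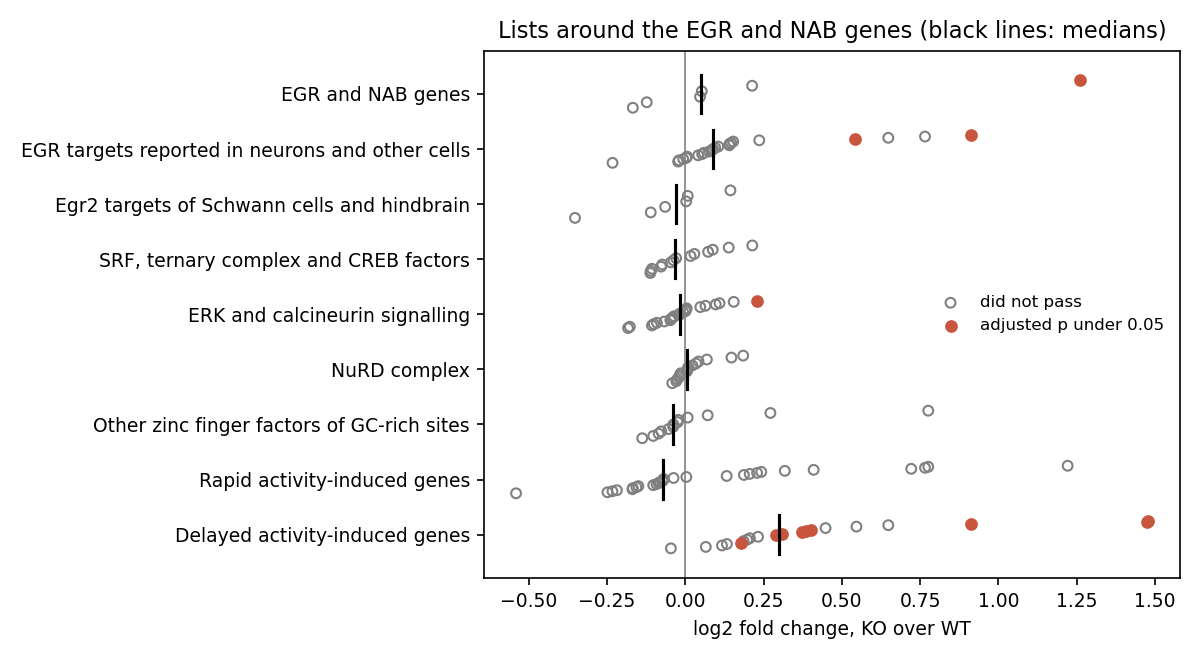
Fitted log2 fold change of KO over WT (x axis) for each tested gene of the EGR and NAB genes and of 8 lists around them. Filled points passed an adjusted p under 0.05, open points did not, and black lines are list medians. The list of delayed genes has its median at 0.30, and the other 7 lists have medians between -0.07 and 0.09.

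EGR genes are expressed chiefly in forebrain neurons, so markers of regions and cell types were read beside them. In bulk tissue fewer cells of a type and less RNA per cell cannot be told apart. Of all tested genes 1.14% passed as higher and 0.289% as lower. Striatal markers summed to 1060 to 1171 CPM in WT and 1198 to 1269 CPM in KO, without overlap, and 3 of 10 rose (Ppp1r1b, Drd1a and Adcy5). Dentate gyrus markers summed to 203.5 to 218 CPM in WT and 193.4 to 198.8 CPM in KO, again without overlap, and 1 of 8 fell (Dsp). Of these 8, 3 had a positive log2 fold change. Endothelial and mural markers summed to 257 to 278.5 CPM in WT and 239.5 to 249.3 CPM in KO with 0 of 8 past the threshold by edgeR. At an unadjusted p under 0.05 there were 4 of the 8, and the share of all tested genes at that cut is not given here. Markers of cortical and hippocampal excitatory neurons overlapped (3743 to 4285 CPM in WT, 3929 to 4265 CPM in KO), with 1 of 12 higher (Emx1), as did cerebellar markers (1637 to 2046 CPM in WT, 1405 to 1827 CPM in KO). The sums of hindbrain, oligodendrocyte, astrocyte, microglia, Schwann cell, blood, choroid plexus and pituitary markers overlapped too, with 0 genes past the threshold in each. The part of shifts in marker levels in the Egr3 level was not tested.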

How the data were processed

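The authors deposited 1 table of estimated counts (expected counts) per gene, with 1 column per library and no scaling between libraries. TopHat2 2.0.9, edgeR and the GRCm38 (mm10) build are named, with no role or order, per the submitters' processing notes, and neither the counting program nor its treatment of strand is given. Of all values 91.5% were whole within 0.001. Brain RNA was taken with Trizol and column purified, and the kit keeps strand, per the labels' protocols.

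Expected counts were rounded. In edgeR 4.0.16 under R 4.3.3, filterByExpr kept genes, TMM set library sizes, and a robust quasi-likelihood model with group as its 1 term gave the test, with Benjamini-Hochberg adjustment over 15902 genes. Log2 values used a prior count of 2. Lengths and positions came from GENCODE M21 on GRCm38, whose starts equal the deposited intervals, counted from 0, for Egr1, Egr2 and Nab1. Pairs of libraries within a group differed beyond sampling noise (chi-square per degree of freedom 2.46 to 5.04), which does not tell separate animals from separate preparations. All 8 libraries were kept.

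The members and lists were chosen with earlier results of these data known. Named genes are the 6 members, Uhrf2, of each list those past the threshold (at most 6) or else the 2 with the lowest p, and for Egr1, Egr3 and Nab2 the 5 genes with the most similar deviations; Syn2, Cdk5r1, Ptgs2, Bdnf, Fos, Arc, Fosb, Chd4, Stat6, the delayed genes beyond 6 and genes called only under an alternative were added after their values were seen. Alternatives were other scalings, filters, DESeq2 1.42.0, limma 3.58.1 (voom), a replicate block, removal of GC and length trends, raw library totals, a prior count of 0.5 and leaving out each library. Leaving out both libraries numbered 1, the spread without each library and the second gene length were chosen after the data were seen. On simulated counts for KO against WT (15902 genes), the fit recovered 66% of 50 genes changed 1.25-fold, 94% at 1.5-fold and 100% at 2-fold. It called 15 unchanged genes. The changed genes were drawn at random from those above a set mean level. Egr1, Egr2, Egr4 and Nab2 varied more than most genes of a like level, so these shares need not hold for them.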

Additional observations from a re-analysis of the deposited data

Results flagged for a closer look

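Egr2 in WT replicate 1, at 2.69 CPM from 32 counts, lay far below the other 3 WT libraries (7.29 to 8.22 CPM), with a gap to the nearest of them of 0.832 of the group's range, above Dixon's critical value for 4 values. Of 12 groups of 4 examined (6 genes in WT and in KO) 1 passed that value, which chance passes in about 1 group in 20. Egr4 and Nab2 were lowest in the same library.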

How the results depend on the processing

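The log2 fold change of Egr3 lay between 1.17 and 1.35 under all alternatives. Of the members not called, Egr2 changed sign without KO replicate 1, and Egr4 without WT replicate 1 (-0.097), without both libraries numbered 1 (-0.13) and with GC and length trends removed (-0.02). Leaving out 1 library gave 110 to 324 changed genes, 96 to 247 higher and 14 to 77 lower, against 228, 182 and 46 with all libraries. The same fits called 2 to 4 EGR targets, 0 to 3 ERK and calcineurin genes, 0 to 2 zinc finger factors, 0 to 2 rapid genes and 5 to 10 delayed genes. The log2 fold changes then ran from -0.22 to -0.056 for Egr1, -0.45 to 0.022 for Egr2, 1.22 to 1.35 for Egr3, -0.097 to 0.13 for Egr4, 0.033 to 0.078 for Nab1 and 0.11 to 0.31 for Nab2. Without both libraries numbered 1, chosen after the data were seen, 162 genes passed in all, 18 of them lower, and 2 zinc finger and 4 rapid genes passed.

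Over all genes DESeq2 called 311, limma-voom 203, and limma-voom with quality weights 301. With GC and length trends removed edgeR called 305, against 228 in the main fit. Counts in the lists are to be read beside these totals. DESeq2 called 1 NuRD gene, 2 zinc finger factors and 4 rapid genes. Limma-voom called 4 EGR targets, 1 zinc finger factor and 4 rapid genes, and with quality weights 4, 2 and 5. With GC and length trends removed, 1 NuRD gene and 1 zinc finger factor passed. The cause of these moves was not tested.

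Over all tested genes, deviations of same-numbered libraries had an r of 0.208 for number 1 and of 0.0772, 0.0245 and 0.0673, near 0, for the others. Of the 8 libraries 5 correlated best with their own number, and WT replicate 3 and KO replicates 2 and 3 did not. The labels do not say whether the numbers pair the samples, and the main fit did not pair them. Whether same-numbered libraries share a batch was not tested. With the replicate number as a block 495 genes passed (347 higher, 148 lower), including 227 of the 228; the call it ended was Nptx2 (edgeR adjusted p = 0.0894). The block called 4 EGR targets, 1 SRF or CREB gene, 1 NuRD gene, 2 zinc finger factors and 5 rapid genes (4 higher, and Npas4 lower). Egr2 rests on 32 to 164 counts a library.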
